A study of Prunus persica with 25 samples.

Results

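The 13 genes described here were those more abundant in flower buds than in vegetative buds of peach both before and after the winter chilling period, out of 26873 genes counted. They were chosen on CPM, the count of a gene after scaling each library to a total of 1000000 counts. A gene was taken when its flower bud mean was at least 5 CPM and at least 4 times the vegetative bud mean, at Pre0CU and again at 930CU. At Pre0CU 17 genes met this rule and at 930CU 493 did, so that 3 passed at Pre0CU only and 479 at 930CU only. Of the 14 that passed at both, LFY (PRUPE_5G140700) was set aside together with AGL79 (PRUPE_3G249300) and SEP1 (PRUPE_1G290500), which did not pass and served as flower bud markers. The opposite rule, vegetative buds at least 4 times flower buds with a vegetative mean of at least 5 CPM, gave 17 genes at Pre0CU, 22 at 930CU and 2 at both.

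All 25 libraries came from axillary buds of the cultivar Fantasia, collected according to chilling units (CU), which sum the hours of effective cold by the Utah model. At each sampled node a vegetative bud had flower buds on both sides, and both kinds were analysed without their outer scales. Vegetative buds were sequenced with 3 libraries per collection, in year A at 0CU, 475CU and 770CU. Those of year B came from Pre0CU (before chilling began), 200CU, 475CU and 930CU (after the chilling requirement was met). Flower buds were sequenced at Pre0CU and 930CU of year B, with 2 libraries each. Per the study's methods, buds of 3 or 4 trees formed the replicates, so the p-values below measure the spread between these libraries. The sample labels give polyA RNA for the 4 flower bud libraries and the 3 vegetative libraries of 930CU, and total RNA for the other 18 vegetative libraries, although the labels name 1 RNA kit and 1 mRNA library kit for all. The study's methods speak of total RNA sequencing only for year A. At Pre0CU the bud type and the labelled RNA therefore cannot be told apart, and neither can time and labelled RNA between the vegetative libraries of Pre0CU and 930CU. The flower bud libraries share 1 label.

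In temperate fruit trees the flower bud is set in summer, and the floral organs inside it continue to differentiate through winter. The vegetative bud holds a shoot meristem that keeps forming leaf primordia. LFY, a transcription factor that gives a meristem its floral identity in Arabidopsis, and the MADS-box genes AGL79 and SEP1 are thus expected on the flower bud side, while homeobox genes such as STM and KNAT1 maintain the meristem of shoots. Of the 13 genes, 2 carry an annotation in the sources used here. PRUPE_1G477800 is matched to RD22, a BURP domain protein that in Arabidopsis responds to drought and abscisic acid. PRUPE_3G171600 is matched to XTH15, a xyloglucan endotransglucosylase/hydrolase, an enzyme that cuts and rejoins xyloglucan chains of the cell wall. The other 11 are given by their identifiers without a role.

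Library totals were 39615840 to 71239880 counts. The 3 flower bud markers summed to 99.8 to 155 CPM in flower buds and to 7.49 to 50.7 CPM in vegetative buds, with no overlap. The 7 vegetative markers (STM, KNAT1, KNOX-A, KNOX-B, PRS, KAN1 and CLAVATA3/ESR) were also present in flower buds. Their sum at Pre0CU was 295 to 325 CPM there against 330 to 350 CPM in vegetative buds, a narrow gap with no overlap. Single markers went either way. Flower to vegetative ratios at Pre0CU were 1.61 for KNOX-A, 1.20 for KNOX-B and 0.72 to 0.91 for the others. At 930CU they were 2.91 for STM, 1.26 for KAN1, 1.09 for KNOX-A and 0.456 to 0.904 for the others. Vegetative libraries of 2 collections of year B stood apart from their own replicates for the genes described here. The summed level of the 13 genes was 457, 426 and 60.9 CPM in libraries 1, 2 and 3 of 475CU, and 59.4, 133 and 316 CPM in those of 200CU. In year A, 4076 to 4756 genes had a count of 0 in a library against 11 to 38 in year B, and about 96.2% of the counts above 0 were even. No test therefore compared the years with each other, and values set across years below are a description only.

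The ratios that chose the genes are a description only. At Pre0CU they ran from 4.00 for PRUPE_3G171600 to 21.2 for PRUPE_1G489400, and at 930CU from 4.45 for PRUPE_5G110200 to 264 for PRUPE_1G489400. In all 13 genes the flower and vegetative libraries did not overlap at either time point, which the rule made likely. For 8 of them every flower library was at least 4 times every vegetative library of its time point. Just inside the threshold, by the smaller of the 2 ratios, lay PRUPE_3G171600 (4.00), PRUPE_8G122200 (4.12) and PRUPE_5G110200 (4.45). Just outside lay PRUPE_1G476200 (3.92), PRUPE_4G070500 (3.91) and PRUPE_1G477200 (3.77), and a further 11 genes met the ratio at both time points with a flower bud mean under 5 CPM. AGL79 and SEP1 fell short at Pre0CU, with ratios of 3.38 and 3.67.

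**Figure D1:**
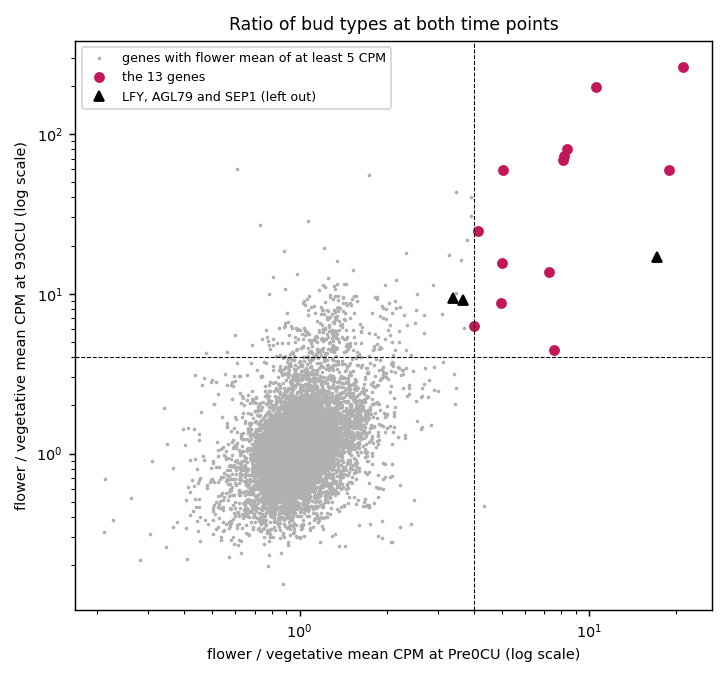
Flower bud mean divided by vegetative bud mean in CPM, at Pre0CU (x axis, log scale) and at 930CU (y axis, log scale), for genes with a flower bud mean of at least 5 CPM at both time points. Dashed lines mark the ratio of 4 used for the choice, and the 13 genes lie in the upper right with ratios of 4.00 to 21.2 at Pre0CU and 4.45 to 264 at 930CU.

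The flower bud libraries were then compared between the time points, to see how these genes changed over winter in the organ where they were high. Of the 13 genes, 10 rose and 0 fell, against 21.8% of the 26790 genes tested that rose and 22.7% that fell. The median log2 fold change was 2.33 for the 13 genes and 0.004 for all genes. A gene was called with a Benjamini-Hochberg adjusted p below 0.05 and a fold change above 1.4 in edgeR's quasi-likelihood test, with n = 2 libraries per time point. These libraries also entered the choice of the genes, through the floor on the flower bud mean and the ratio within each time point. The rule was met by 17 genes at Pre0CU and by 493 at 930CU. The shares of all genes are therefore not a like background for genes chosen by this rule. How far the choice tilted the count of rises was not tested. The counts and adjusted p-values in flower buds thus describe the 13 genes only. In bulk buds, more cells of a type and more RNA per cell cannot be told apart.

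The steepest rise was that of PRUPE_1G489400, at 25.6 and 31.7 CPM in the flower libraries of Pre0CU and 354 and 350 CPM (means 28.6 and 352) in those of 930CU. Its log2 fold change was 3.48 ± 0.09 (SE, adjusted p = 2.03e-12, edgeR). PRUPE_1G223600 stood at 19.8 and 23.6 CPM at Pre0CU and at 221 and 225 CPM at 930CU, a log2 fold change of 3.23 ± 0.08 (SE). In both genes the time points lay much further apart than the replicates. PRUPE_2G151000 went from 7.05 and 9.24 CPM to 84.3 and 88.7 CPM, a log2 fold change of 3.27 ± 0.11. PRUPE_7G164100 went from 22.2 and 20.7 CPM to 204 and 205 CPM, a log2 fold change of 3.11 ± 0.07. PRUPE_3G249400 went from 8.04 and 11.9 CPM to 91.7 and 91.9 CPM, a log2 fold change of 3.07 ± 0.14. These 5 genes, together with PRUPE_6G321400, formed the group that rose at least 7.18-fold.

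PRUPE_6G321400 was at 156 and 196 CPM at Pre0CU and at 1403 and 1382 CPM at 930CU, a log2 fold change of 2.84 ± 0.08 (SE, adjusted p = 4.8e-12, edgeR). It alone made 42.3% of the summed CPM of the 13 genes in flower buds at Pre0CU and 51.0% at 930CU. CPM carry no correction for gene length, so this is its weight in the sum and not a rank of transcript numbers. The sum itself was 381 and 452 CPM at Pre0CU and 2733 and 2728 CPM at 930CU.

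A second group rose less. PRUPE_8G122200 went from 27.1 and 34.3 CPM to 170.0 CPM in both libraries of 930CU, a log2 fold change of 2.33 ± 0.10. PRUPE_5G208400 went from 8.12 and 10.8 CPM to 35.7 and 34.6 CPM, a log2 fold change of 1.76 ± 0.15. PRUPE_1G290600 was at 32.4 and 30.7 CPM before chilling and at 79.4 and 80.2 CPM after it, a log2 fold change of 1.20 ± 0.10. PRUPE_2G287000, the gene with the smallest called rise, went from 7.67 and 9.51 CPM to 18.6 and 19.1 CPM, a log2 fold change of 1.00 ± 0.16 (SE, adjusted p = 8.37e-05, edgeR). In all 10 genes that rose, both libraries of 930CU were above both of Pre0CU.

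The remaining 3 genes were not called in flower buds. PRUPE_5G110200 was at 18.9 and 21.5 CPM at Pre0CU and 30.4 and 30.5 CPM at 930CU, and its log2 fold change of 0.45 ± 0.10 (adjusted p = 0.00154, edgeR) lay under the fold change asked for. The RD22 gene PRUPE_1G477800 was at 26.5 and 36.7 CPM and then at 28.9 and 24.7 CPM, with overlapping libraries and a log2 fold change of -0.37 ± 0.16 (adjusted p = 0.0587). The XTH15 gene PRUPE_3G171600 was at 21.3 and 14.9 CPM and then at 11.4 and 25.7 CPM. Its libraries of 930CU differed more from each other than the time points did, and its log2 fold change was -0.11 ± 0.32 (adjusted p = 0.786). The 2 annotated genes were thus among the 3 that were not called over winter. Among the flower bud markers, log2 fold changes were 0.48 for LFY, 0.25 for AGL79 and 0.81 for SEP1, of which SEP1 was called.

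**Figure D2:**
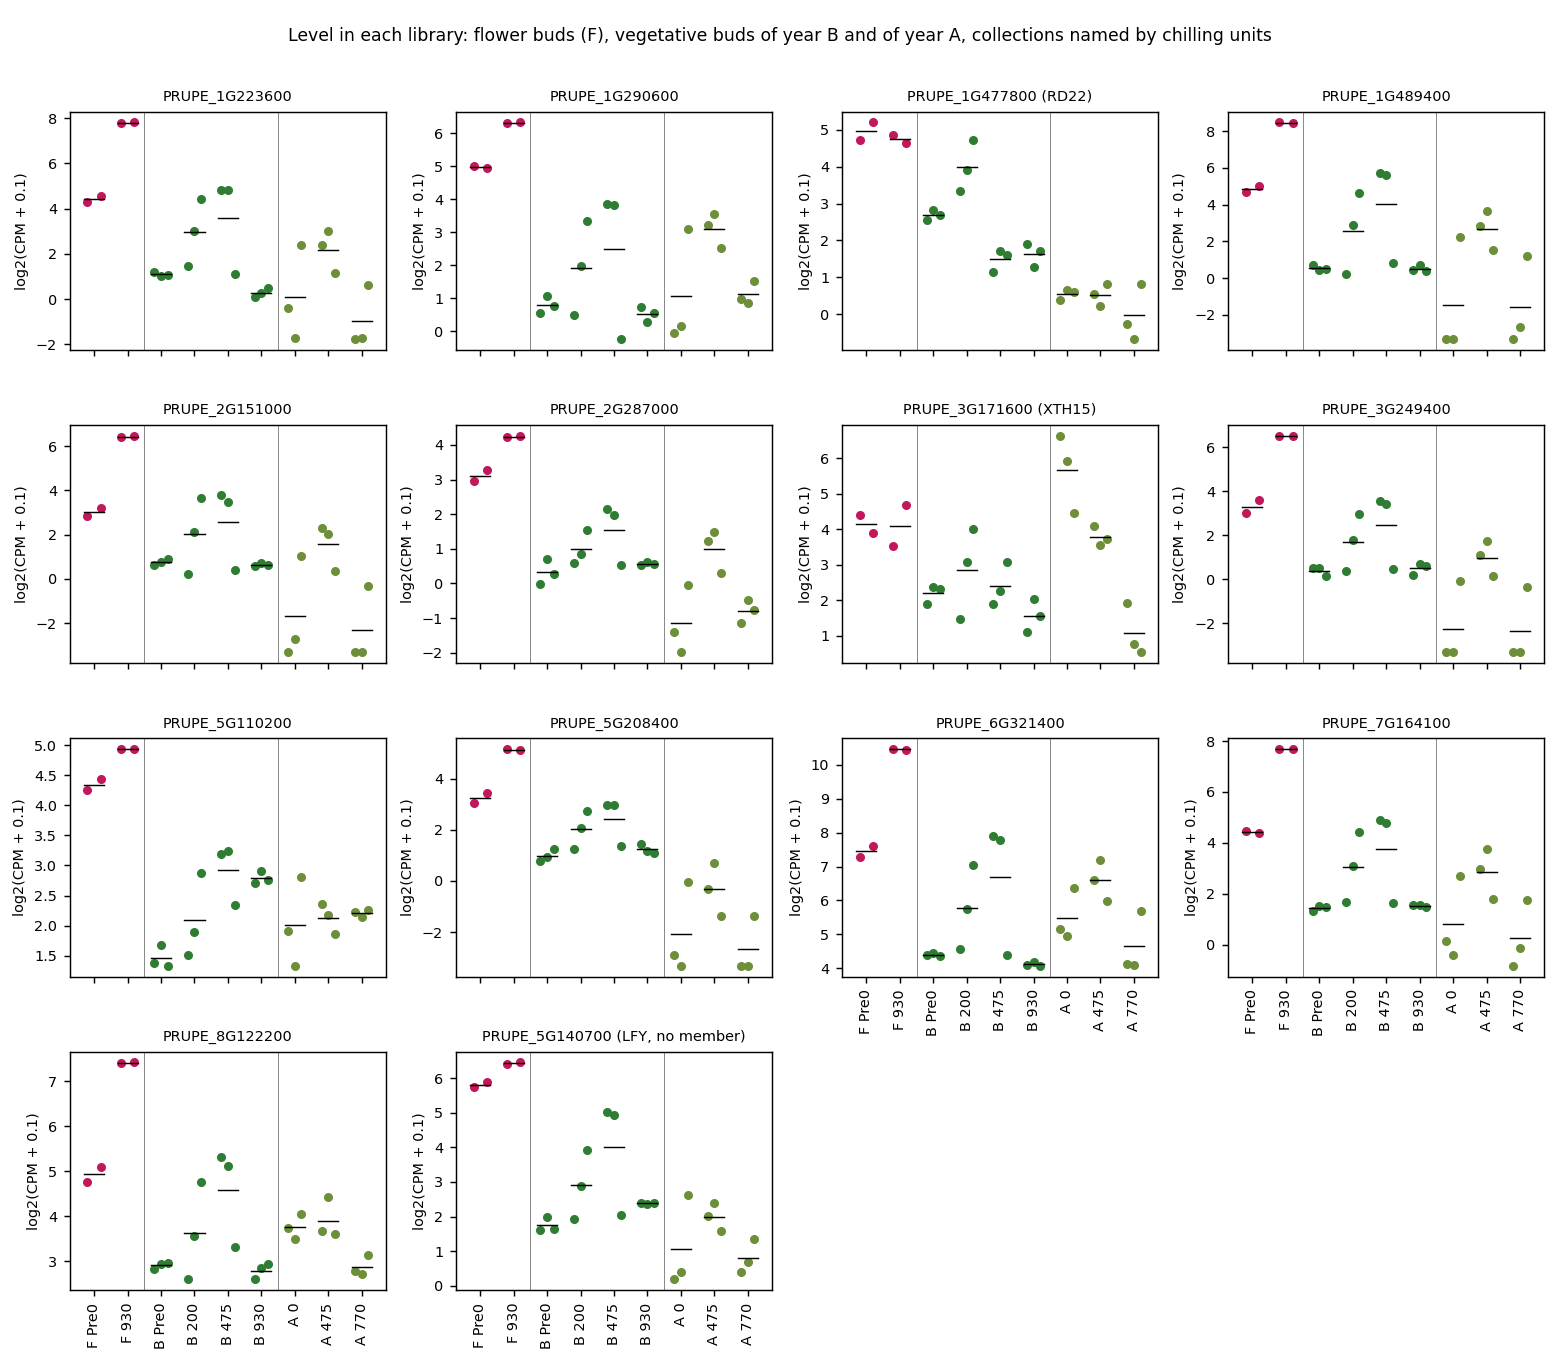
Level of each of the 13 genes and of LFY in every library, as log2(CPM + 0.1), with the mean of each collection as a bar. Flower buds (F) stand left, then vegetative buds of year B and of year A, named by their chilling units. Flower buds of 930CU are the highest points in 11 of the 13 panels, and the libraries of vegetative buds at 200CU and 475CU of year B are spread widely in most.

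The vegetative libraries of both time points also entered the choice, which asked for a low vegetative mean at each and so favoured genes with few rises there. From Pre0CU to 930CU, 1 of the 13 genes rose and 2 fell, against 16% of the 26790 genes that rose and 22% that fell, and the median log2 fold change was -0.13. PRUPE_5G110200 rose from 2.51, 3.10 and 2.42 CPM to 6.47, 7.42 and 6.64 CPM, a log2 fold change of 1.32 ± 0.10 (SE, adjusted p = 7.99e-08, edgeR, n = 3 libraries per time point). It was the only one of the 13 whose ratio of flower to vegetative mean was lower at 930CU (4.45) than at Pre0CU (7.56). PRUPE_1G223600 fell from 2.19, 1.96 and 2.02 CPM to 0.974, 1.12 and 1.31 CPM, a log2 fold change of -0.86 ± 0.13 (adjusted p = 4.5e-05). The RD22 gene PRUPE_1G477800 fell from 5.76, 7.04 and 6.34 CPM to 3.68, 2.33 and 3.20 CPM, a log2 fold change of -1.09 ± 0.16 (adjusted p = 5.22e-05). In these 3 genes the libraries of the time points did not overlap. PRUPE_1G489400, which had the steepest rise in flower buds, was at 1.51, 1.26 and 1.29 CPM and then at 1.25, 1.56 and 1.19 CPM in vegetative buds, with a log2 fold change of -0.05 ± 0.15. PRUPE_6G321400 was at 20.4 to 21.8 CPM and then at 16.8 to 18.1 CPM, with no overlap, and its log2 fold change of -0.30 ± 0.07 lay under the fold change asked for. Summed over the 13 genes, vegetative buds held 52.6 to 58.9 CPM at Pre0CU and 48.4 to 52.3 CPM at 930CU.

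The change over winter in flower buds minus that in vegetative buds is the difference of the same 2 ratios that chose the genes, so it is given without a reading. It also carries the change of labelled RNA in the vegetative libraries. By the interaction term of the edgeR fit it was higher in flower buds for 11 genes and lower for PRUPE_5G110200, against 13.2% and 11.4% of the genes tested, and PRUPE_3G171600 was not called.

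**Figure D3:**
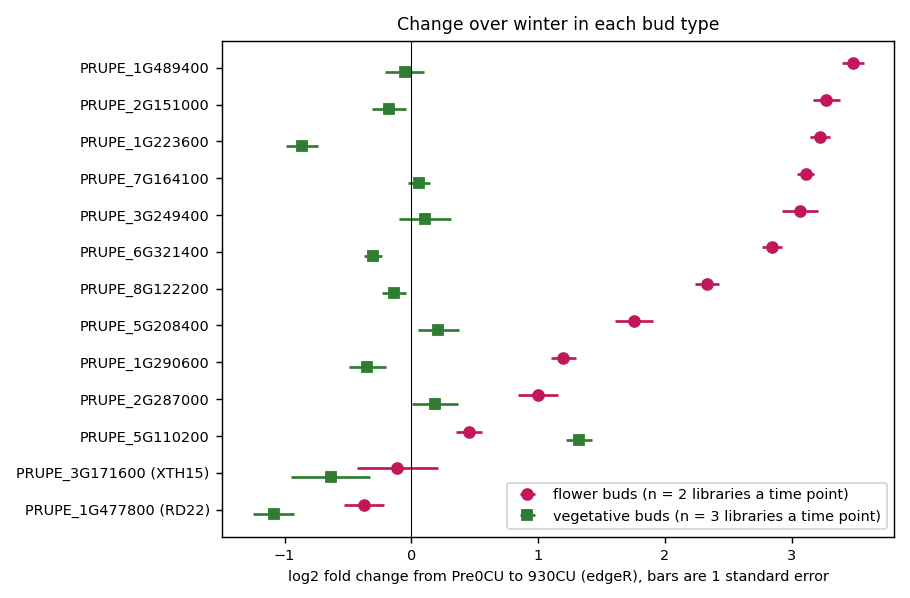
Log2 fold change from Pre0CU to 930CU (x axis) for each of the 13 genes, in flower buds (circles, n = 2 libraries per time point) and vegetative buds (squares, n = 3), with bars of 1 standard error from edgeR. Flower bud values reach 3.48, while vegetative bud values lie between -1.09 and 1.32.

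Between these end points the vegetative buds of year B were also collected at 200CU and 475CU. These libraries had no part in the choice of the genes. The vegetative libraries of Pre0CU did, since the choice asked for a low mean there, which favoured rises from Pre0CU. At 200CU the fitted level of all 13 genes was above that at Pre0CU, but 3 passed the test and 0 fell, against 9.14% of 26752 genes that rose. The median log2 fold change was 1.66 for the 13 genes and 0.03 for all genes. The RD22 gene PRUPE_1G477800 rose to 10.1, 15.0 and 26.2 CPM, a log2 fold change of 1.48 ± 0.32 (adjusted p = 0.000854, edgeR). PRUPE_1G223600 rose to 2.66, 7.88 and 21.7 CPM (log2 fold change 2.45 ± 0.92, adjusted p = 0.0422) and PRUPE_6G321400 to 23.8, 53.5 and 131 CPM (1.79 ± 0.67, adjusted p = 0.0419). In these genes every library of 200CU was above every library of Pre0CU, and the 3 libraries of 200CU were far apart. Leaving out any single library moved the number of called genes to between 1 and 8, with 8 called without library 1 of 200CU and 1 called without its library 2 or 3 or without any library of Pre0CU.

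From 200CU to 475CU only PRUPE_1G477800 was called, with a log2 fold change of -2.67 ± 0.34 (adjusted p = 2.49e-05, edgeR), against 2.76% of genes that rose and 3.55% that fell. Its level at 475CU was 2.13, 3.16 and 2.92 CPM, below every library of 200CU. The number called was 3 without library 3 of 200CU and also 3 without library 3 of 475CU.

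Time and labelled RNA cannot be told apart between 475CU (total RNA) and 930CU (polyA RNA) either. The vegetative libraries of 930CU also entered the choice, which asked for a low mean there and so favoured falls from 475CU. From 475CU to 930CU, 8 of the 13 genes fell and 0 rose, against 9.88% and 3.67% of the genes tested, and the median log2 fold change was -2.57. PRUPE_1G489400 had been at 52.0, 48.7 and 1.65 CPM, and its log2 fold change was -4.69 ± 1.33 (adjusted p = 0.0115, edgeR). PRUPE_6G321400 had been at 240.3, 222 and 21.0 CPM (-3.23 ± 0.70, adjusted p = 0.0016) and PRUPE_8G122200 at 39.7, 34.5 and 9.86 CPM (-2.04 ± 0.44, adjusted p = 0.0014). In each of these libraries 1 and 2 of 475CU were the high ones, and library 3 lay at 1.65, 21.0 and 9.86 CPM against highest values of 1.56, 18.1 and 7.54 CPM at 930CU. With 475CU represented by its library 3 alone, an alternative chosen after seeing the data, 0 of the 13 genes were called. That fit has 1 library at 475CU, takes its spread from the other groups, and shows only that the calls need the other libraries. The number was 4 without library 1 or without library 2, 9 without library 3, and 4 when library 2 or library 3 of 930CU was left out.

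Inside these 2 collections the libraries of most of the 13 genes were far apart. At 475CU of year B, 8 of the 13 genes had a highest library at least 4 times the lowest, and at 200CU 9 did. Among genes with a mean of at least 5 CPM this held for 8 of 11 at 475CU and 8 of 9 at 200CU, against 0.156% and 0.314% of all such genes. At 475CU PRUPE_1G489400 had the widest range of the 13 genes, 31.5-fold, and PRUPE_1G290600 stood at 14.3, 14.1 and 0.752 CPM, a 19.1-fold range. At 200CU PRUPE_1G489400 was at 1.08, 7.16 and 25.0 CPM, a 23.1-fold range. Libraries 1 and 2 were the high ones at 475CU and library 3 at 200CU, and the exceptions were the 2 annotated genes: at 475CU PRUPE_3G171600 was highest in library 3, at 8.39 CPM against 3.63 and 4.66 CPM, and PRUPE_1G477800 was highest in library 2. In the vegetative libraries of Pre0CU and 930CU, 0 of the 3 members with a mean of at least 5 CPM had such a range, against 0% and 0.0638% of genes. In flower buds 0 of 13 had it at either time point, against 0% of genes at Pre0CU and 0.0246% at 930CU. In year A it was 1 of 3 such genes at 0CU, 1 of 7 at 475CU and 0 of 2 at 770CU, against 0.588%, 0.0897% and 0.0416%. Most of the 13 genes were under that mean at 0CU and 770CU. Over all 13 genes the median of highest over lowest library was 9.68 at 0CU, 2.38 at 475CU and 3.17 at 770CU of year A. It was 5.94 at 200CU and 9.25 at 475CU of year B. A gene with a library at 0 entered these medians as an infinite range.

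Of the flower bud markers, LFY moved most with this spread. LFY was at 3.70, 7.34 and 14.95 CPM in the libraries of 200CU and at 32.4, 30.7 and 4.01 CPM in those of 475CU. At 200CU all 13 genes followed the library order of LFY, against 22% of genes with a mean of at least 5 CPM, and at 475CU 9 of 13 did, against 25.5%. Elsewhere in year B 5 of 13 did at Pre0CU (14.9% of genes) and 0 of 13 at 930CU (10.8%). In year A 2 of 13 did at 0CU (36.6%), 9 of 13 at 475CU (24.2%) and 3 of 13 at 770CU (12.5%). At 0CU and 770CU LFY was highest in library 3. Its libraries 1 and 2 lay close, at 1.04 and 1.21 CPM and at 1.21 and 1.52 CPM. Some of the 13 genes were at 0 in both. All but PRUPE_1G477800 and PRUPE_3G171600 were highest in library 3 at 0CU. At 770CU all but PRUPE_2G287000 and PRUPE_3G171600 were, and the share of all genes is not given here. AGL79 (15.7, 14.0 and 6.12 CPM) and SEP1 (2.66, 2.73 and 0.773 CPM) were also lowest in library 3 of 475CU. Their ranges there were 2.56-fold and 3.53-fold. At 200CU AGL79 was at 6.84, 8.40 and 13.8 CPM and SEP1 at 1.24, 1.11 and 2.16 CPM, ranges of 2.01-fold and 1.96-fold. Summed over the 3 flower bud markers, libraries ranged from 11.8 to 30.9 CPM at 200CU and from 10.9 to 50.7 CPM at 475CU. The 7 vegetative markers had no such range: their highest library was 1.06 to 1.69 times the lowest, none was at 0, and their sum was 125 to 134 CPM at 200CU and 158 to 196 CPM at 475CU. Of the 25 genes with a 4-fold range at 475CU, 18 (72.0%) met the flower bud rule at 930CU, which is 3.65% of the 493 genes that met it. At 200CU 31 of 50 did (62.0%), which is 6.29% of the 493. In each collection these included 8 of the 13 genes, which met that rule by the choice, and LFY. Over all genes counted, 493 of 26873 met it. The part of flower bud tissue in these values was not tested.

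Set against flower buds of Pre0CU, the median level of the 13 genes was 118% and 107% in libraries 1 and 2 of 475CU and 14.2% in library 3. At 200CU it was 13.5%, 36.3% and 83.0% in libraries 1, 2 and 3. Against flower buds of 930CU the medians at 475CU were 17.3%, 15.9% and 1.51%. The choice held the vegetative mean at 930CU to at most 0.25 times the flower bud mean of 930CU. The count below for that collection was therefore largely fixed, while 200CU and 475CU had no part in the choice. The mean of a vegetative collection was at most 0.25 times both flower bud means for 12 of the 13 genes at 930CU, 3 at 200CU and 1 at 475CU of year B. In year A this was so for 10 genes at 0CU, 6 at 475CU and 13 at 770CU, where the flower buds come from the other year and only the size of the gap is given.

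**Figure D4:**
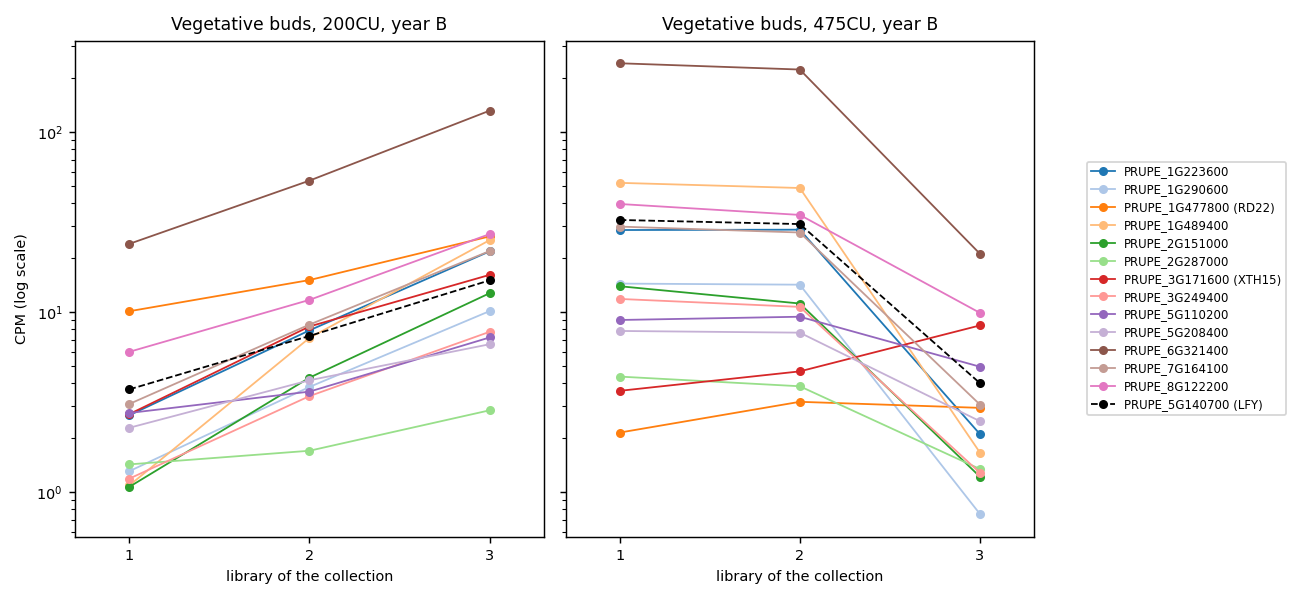
CPM (log scale) of the 13 genes and of LFY (dashed, black) in the 3 libraries of vegetative buds at 200CU and at 475CU of year B. Lines join the values of 1 gene and carry no order in time. Most genes are high in library 3 of 200CU and in libraries 1 and 2 of 475CU, where LFY is at 14.95, 32.4 and 30.7 CPM.

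In year A, whose libraries were also not used in the choice, 2 genes rose and 1 fell from 0CU to 475CU, against 9.74% and 13.7% of genes. PRUPE_2G287000 rose from 0.277, 0.151 and 0.875 CPM to 2.23, 2.69 and 1.13 CPM, a log2 fold change of 2.28 ± 0.50 (adjusted p = 0.00104, edgeR). PRUPE_3G249400 rose from 0, 0 and 0.837 CPM to 2.03, 3.20 and 1.01 CPM, a log2 fold change of 2.94 ± 1.09 (adjusted p = 0.0371). Both had all 3 libraries of 475CU above those of 0CU. The XTH15 gene PRUPE_3G171600 went the other way, from 99.7, 61.4 and 21.8 CPM to 17.0, 11.7 and 13.2 CPM, a log2 fold change of -2.04 ± 0.51 (adjusted p = 0.00321). Its 3 libraries of 0CU were all above those of 475CU. Library 1 of 0CU stood at 550% of the flower bud mean of Pre0CU, which comes from the other year, so only the size of the gap is given. Without library 3 of 0CU, 9 genes were called instead of 3. In that library PRUPE_6G321400 was at 82.4 CPM against 35.7 and 30.9 CPM in the others, and LFY at 6.05 CPM against 1.04 and 1.21 CPM.

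From 475CU to 770CU of year A, 8 of the 13 genes fell and 0 rose, against 8.77% and 4.38% of genes, and the median log2 fold change was -2.45. PRUPE_3G171600 fell further, to 3.70, 1.61 and 1.34 CPM (log2 fold change -2.70 ± 0.57, adjusted p = 0.00172, edgeR). PRUPE_2G287000 fell to 0.350, 0.614 and 0.489 CPM (-2.05 ± 0.48, adjusted p = 0.00394). PRUPE_6G321400 fell from 97.8, 146 and 62.6 CPM to 17.5, 17.1 and 51.9 CPM (-1.84 ± 0.66, adjusted p = 0.0488). In these 3 genes no library of 770CU reached the lowest of 475CU, and library 3 of 770CU was the high one for PRUPE_6G321400. The flower bud markers were also lower at 770CU: their sum was 14.6 to 30.0 CPM at 475CU and 7.49 to 8.54 CPM at 770CU, and AGL79 was called (log2 fold change -1.56 ± 0.30) while LFY (-1.24 ± 0.67) and SEP1 (-0.86 ± 0.50) were not. The sum of the 7 vegetative markers was 379 to 407 CPM and then 383 to 420 CPM, and the part of flower bud tissue in the falls was not tested. Leaving out library 3 of 770CU raised the number of called genes to 10, whereas leaving out library 1 or 2 of either collection lowered it to 2. The counts were at 0 for 4 genes (PRUPE_1G489400, PRUPE_2G151000, PRUPE_3G249400 and PRUPE_5G208400) in some of libraries 1 and 2 of 0CU and 770CU, which allows up to 0.0878 to 0.151 CPM by a limit of 6 counts (3 steps of 2, since nearly all counts of year A were even) that covers counting error only.

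The 2 annotated genes belong to groups with the same annotation. For RD22 these were 9 genes, all within 27 rows of PRUPE_1G477800 in the count table. How reads that match more than 1 of them were counted is not given in the sources used here. The flower to vegetative ratios of the 9 genes were 1.13 to 4.95 at Pre0CU and 1.53 to 30.7 at 930CU. Of the 9, 5 reached 4 at 930CU and only PRUPE_1G477800 did at Pre0CU. PRUPE_1G476200 came nearest, with flower and vegetative means of 261 and 66.6 CPM at Pre0CU and 415 and 13.5 CPM at 930CU. For XTH15 these were 4 genes. PRUPE_3G171700, the next row after PRUPE_3G171600, had ratios of 2.50 and 6.56, and its vegetative means in year A were 78.0, 19.0 and 3.33 CPM at 0CU, 475CU and 770CU beside 61.0, 14.0 and 2.22 CPM for PRUPE_3G171600. PRUPE_1G169700 had ratios below 1 at both time points (0.756 and 0.457).

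Table rows also placed 3 of the unannotated genes beside MADS-box genes. Only the 13 genes and a short preset list that included LFY, AGL79, SEP1 and AGL20A were looked for as neighbours. The share of all genes that lie so near a MADS-box gene is not given here, so the placement is a description only. PRUPE_1G290600 is the row next to SEP1 and PRUPE_3G249400 the row next to AGL79, while PRUPE_2G151000 lies 2 rows from AGL20A (PRUPE_2G151200). In flower buds the log2 fold change was 3.07 ± 0.14 for PRUPE_3G249400 and 0.25 ± 0.08 for AGL79, and 1.20 ± 0.10 for PRUPE_1G290600 and 0.81 ± 0.21 for SEP1, where the difference between neighbours was not tested. By the first digit of their identifiers, 4 of the 13 genes belong to group 1, 2 each to groups 2, 3 and 5, 1 each to groups 6, 7 and 8, and 0 to group 4.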

How the data were processed

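The authors deposited raw read counts for each gene. Per the study's methods, the authors trimmed reads with fastp, mapped them with STAR to the NCBI peach v2 genome and obtained exon counts from bedtools multicov 2.30.1 without duplicated reads. Whether strand was used is not given in the sources used here, so reads of overlapping genes may not be told apart. Year B columns named 930 were matched to the samples labelled as after 770CU. All columns were mapped to groups.

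CPM were computed from column totals. Counts were tested with edgeR 4.0.16 in R 4.3.3 (filterByExpr with a minimum count of 10 and minimum total of 15, TMM, quasi-likelihood test, Benjamini-Hochberg adjustment over all genes tested). One fit held the 10 libraries of Pre0CU and 930CU, another the 21 vegetative libraries, with contrasts within a year only. Standard errors were derived from the same fits. TMM moved log2 fold changes by -0.14 against column totals in flower buds, by -0.11 in the interaction and by 0.10 from 0CU to 475CU. Alternatives included DESeq2 1.42.0, other filters and thresholds, a replicate block, separate fits by year and leaving out each library. The fits were tested on simulated data.

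The genes, marker lists and comparisons were chosen with earlier results of these data known. The planned naming rule took genes by function, level and change. Functional lists could not be applied for want of product names, so all 13 genes are named. Replicates differed by more than counting error, with a mean chi-square per gene of 2.88 to 81.5 over 23 pairs, so none was counted as a copy.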

Additional observations from a re-analysis of the deposited data

Results flagged for a closer look

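For 12 of the 13 genes the change from Pre0CU to 930CU differed between the bud types by the interaction term of the edgeR fit. This term is the difference of the 2 ratios that chose the genes, so the values below describe them and support nothing. On the log2 scale, the change in flower buds minus that in vegetative buds was 4.08 for PRUPE_1G223600, 3.54 for PRUPE_1G489400, 3.45 for PRUPE_2G151000, 3.15 for PRUPE_6G321400, 3.05 for PRUPE_7G164100 and 2.96 for PRUPE_3G249400. It was 2.47 for PRUPE_8G122200, 1.55 for PRUPE_1G290600, 1.54 for PRUPE_5G208400, 0.81 for PRUPE_2G287000 and 0.71 for PRUPE_1G477800. PRUPE_5G110200 was the only one with a smaller change in flower buds, at -0.87. The calls of PRUPE_1G477800 and PRUPE_2G287000 were lost when library 1 of flower buds at Pre0CU or library 2 of vegetative buds at Pre0CU was left out, and that of PRUPE_1G477800 also without library 1 of flower buds or library 2 of vegetative buds at 930CU.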

How the results depend on the processing

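In flower buds 10 of the 13 genes were called in the reported fit and 10 to 11 with any library left out. The same ranges were 10 to 12 for the interaction, 3 to 4 for vegetative buds from Pre0CU to 930CU, 1 to 8 for 200CU against Pre0CU, 1 to 3 for 475CU of year B against 200CU, 4 to 9 for 930CU against 475CU, 2 to 9 for 475CU of year A against 0CU and 2 to 10 for 770CU against it. Where a collection of 2 flower libraries lost one, the remaining one was assumed to vary like the other groups. With at least 10 counts in every library, the calls were 4 for 930CU against 475CU, 1 for 475CU against 0CU and 3 for 770CU against 475CU, as fewer of the 13 genes were then tested. At an adjusted p below 0.01 and a fold change above 1.5 they were 1 for 200CU against Pre0CU, 3 for 930CU against 475CU and 2 for 770CU against 475CU. With an absolute log2 fold change above 1.4, 0 were called in vegetative buds from Pre0CU to 930CU. DESeq2 called 5 from 475CU to 770CU. Separate fits by year called 4 there and 6 from Pre0CU to 200CU. With 475CU of year B represented by library 3 alone, 0 were called from 475CU to 930CU, and the log2 fold changes of PRUPE_1G290600 (0.80), PRUPE_2G287000 (0.0079) and PRUPE_3G249400 (0.027) changed sign. The causes of the other changes were not tested. The shares of all genes called under these settings are not given here, so the counts cannot be read against them. A ratio of 3 gave 26 genes, a ratio of 8 gave 6, and asking it of every library gave 8.

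The replicate block lowered the calls from Pre0CU to 200CU from 3 to 1 and moved no other count by over 1.5 times. Deviations of libraries with the same number correlated at -0.02 to 0.08 in the fit of both bud types and at -0.12 to 0.17 in the vegetative fit. For libraries with different numbers the ranges were -0.08 to 0.03 and -0.11 to 0.11. Whether libraries with the same number share a tree or a batch cannot be told from these values.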
